A study of Ovis aries with 6 samples.

Results

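Of 1620 sheep genes that the authors called changed after INHBA knockdown, 37 were grouped under cyclic AMP, cyclic GMP, calcium or neuroactive receptor signalling. They were chosen by annotation: each carries the KEGG pathway for cAMP, cGMP-PKG or calcium signalling, or for neuroactive ligands and their receptors, in the authors' deposited table. A further 18 genes with one of these 4 pathways were left out because they also carry a growth factor, adhesion, cytoskeleton or cytokine pathway. The cAMP and calcium pathways each named 13 of the 37, the cGMP-PKG pathway 11 and the neuroactive pathway 18, and 24 of the 37 carried a single pathway of the 4. Several, such as CNR1, S1PR1, PTGER4, CHRNA2 and complement C3, carried only the neuroactive pathway and not those for cAMP, cGMP-PKG or calcium.

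The cells were primary granulosa cells from follicles of at least 3 mm of sexually mature Hu sheep (Ovis aries); the ovaries came from a slaughterhouse, and the number of animals is not stated. They were transfected by Lipofectamine 3000 with siRNA that targets INHBA (siINHBA) or with a negative control (siNC), and RNA was taken after 24 h. There were 3 libraries of each kind. No label ties them to separate wells, cultures or animals, so every p-value rests on a spread among libraries that may be no more than technical. INHBA encodes the activin and inhibin beta A subunit.

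Cyclic AMP is made by adenylyl cyclases when receptors coupled to the G protein Gs are bound, is reduced by receptors coupled to Gi, and is broken down by phosphodiesterases. It acts through protein kinase A and cyclic nucleotide-gated channels. Receptors coupled to Gq release calcium from stores, and calcium bound to calmodulin activates CaM kinases, while pumps in the plasma membrane return the ions. In granulosa cells, follicle-stimulating hormone and luteinising hormone act mainly through cAMP, and prostaglandin E2 raises cAMP in the ovulatory follicle. Sequences of these genes were not used here.

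Counts over the listed genes summed to between 1590871 and 2948524 per library, of which the 37 genes took 1.05 to 1.08% in siNC and 0.603 to 0.678% in siINHBA. Levels are given as FPKM, counts corrected for transcript length and library depth by the authors, in the order siNC 1, 2 and 3, then siINHBA 1, 2 and 3. INHBA itself was at 21.2, 21.8 and 18.5 FPKM in siNC, and at 8.02, 6.51 and 7.54 FPKM after INHBA siRNA, and its groups did not overlap. The log2 difference in INHBA was -1.49 (SE 0.14), with an adjusted p of 3.9e-06 by edgeR's quasi-likelihood test with Benjamini-Hochberg adjustment, as for every adjusted p below; with TMM scaling, described below, it was -0.41 (adjusted p = 0.018). Of 12 granulosa markers 5 were listed, INHA, INHBA, NR5A1, HSD17B1 and CYP11A1, of which 4 were lower and 1, HSD17B1, was higher, with a summed level of 194 to 208 FPKM in siNC and 65.5 to 82.2 FPKM in siINHBA; the other markers, FSHR and CYP19A1 among them, were not analysed here. Theca, stroma and muscle markers (2 of 12 listed, DES and PDGFRB) summed to 63.0 to 65.9 FPKM in siNC and 16.1 to 21.6 in siINHBA. The neural marker SYT1, the only one listed of 6, was at 1.54 to 1.94 and 0.207 to 0.319 FPKM, the oocyte marker KIT (of 7) at 5.35 to 5.40 and 0.897 to 1.54. Endothelial (2 of 8), leukocyte (1 of 8) and epithelial (2 of 7) markers summed to at most 0.679, 0.462 and 33.6 FPKM in siNC, against 0.213, 0.231 and 12.7 FPKM in siINHBA. The part of these markers in the results that follow was not tested, and in such bulk RNA fewer cells of a type and less RNA per cell cannot be told apart.

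Lower levels prevailed. After INHBA siRNA 30 of the 37 genes (81.1%) were lower and 7 higher, where 65.7% of all listed genes were called lower and 34.3% higher (edgeR, adjusted p under 0.05). Every listed gene passed (100%), because the table holds only genes called on this same contrast, so the counts only describe the 37 genes. The groups did not overlap for any of the 37, against 99.9% of the table. The median log2 fold change was -1.42, with quartiles of -1.81 and -1.10, against -1.16 for the table. Among the genes that were lower the median was -1.52, against -1.40 for the table, and among those higher it was 2.73, against 1.48.

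Many of the genes were weakly expressed. In 13 of the 37 (35.1%) the mean was under 1 FPKM in both groups, against 15.2% of the table, and the median level in siNC was 1.49 FPKM, against 3.21. The levels in siNC ran from 0.0675 FPKM for an insulin receptor substrate-like gene to 75.4 FPKM for TNNI3. The number of genes under 1 FPKM was 16 in siNC and 20 in siINHBA.

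**Figure D1:**
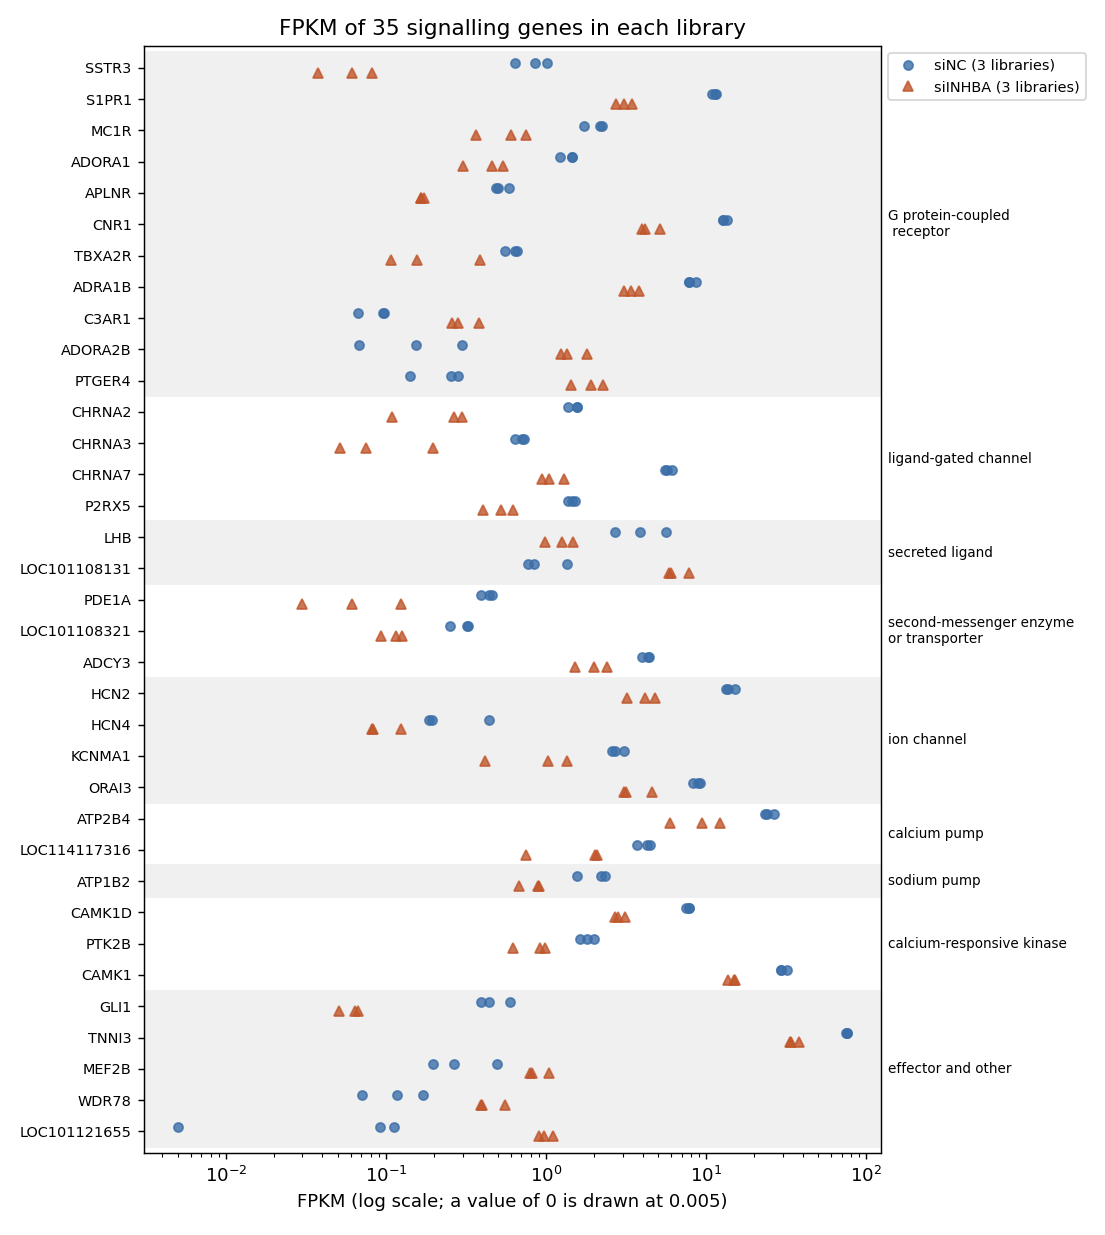
FPKM (log axis) of 35 of the 37 genes in the 3 siNC libraries (circles) and the 3 siINHBA libraries (triangles), grouped by role. The groups are apart for every gene drawn, with 28 lower and 7 higher in siINHBA, over levels from under 0.1 to over 75 FPKM; a value of 0 (LOC101121655 in siNC 3) is drawn at 0.005 FPKM.

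Scaling decides part of this picture. Fold changes are given at a library depth read from how many counts make 1 FPKM. If edgeR's TMM factors are taken over the listed genes instead, the median of the table is raised by 1.09 on the log2 scale. Then 19 of the 37 passed, against 56.7% of the table. All 7 higher genes were still called higher, and among all listed genes 555 were called higher with either scaling. Of the 30 lower genes 12 were still called lower, 16 were below 0 without passing, and CAMK1 and PTK2B turned to just above 0. Among all listed genes, 1065 were called lower at the depth read from FPKM and 364 with TMM. DESeq2 with its own size factors also called 12 lower and 7 higher, against 56.4% of the table in either direction. Among the 12 with TMM were SSTR3, GLI1, CHRNA2, CHRNA3, PDE1A, CHRNA7, S1PR1, HCN2, CNR1 and CAMK1D. The calls of the other lower genes described here hold for the recovered depth and not for TMM.

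**Figure D2:**
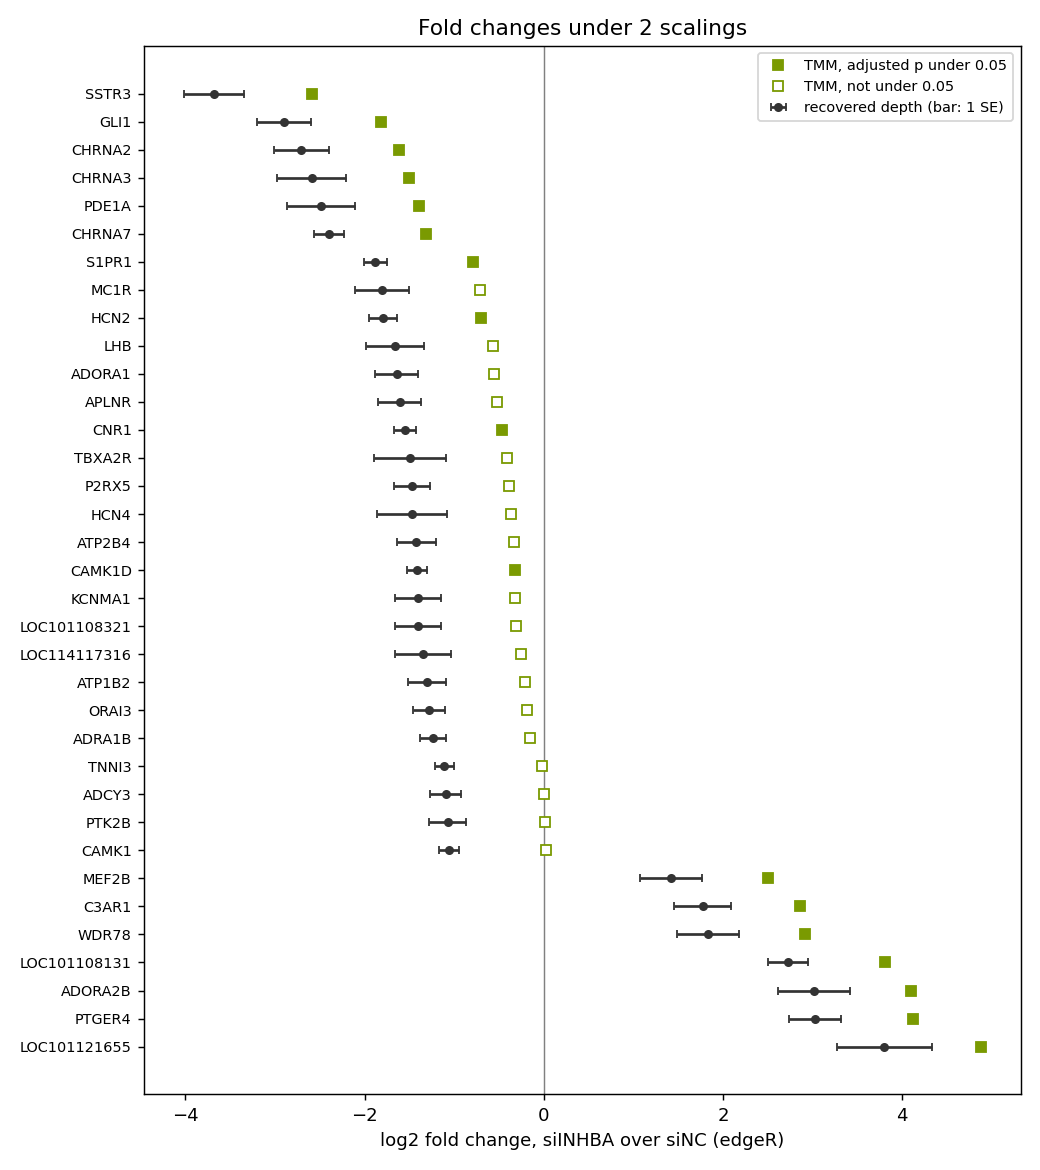
Log2 fold changes of 35 of the 37 genes (siINHBA over siNC, edgeR) with the recovered depth (circles, bars of 1 SE) and with TMM over the listed genes (squares, filled where the adjusted p is under 0.05). TMM moves every gene to the right by about the 1.09 of the table, leaving 10 lower and 7 higher of the genes drawn past the threshold.

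Receptors that couple to G proteins made up the largest role. All 11 belong to the rhodopsin family by Pfam, as do 22 genes (1.36%) of the whole table. Of the 11, 8 were lower and 3, PTGER4, ADORA2B and C3AR1, were higher. PTGER4 is the EP4 receptor for prostaglandin E2 and couples to Gs. Its level was 0.253, 0.281 and 0.140 FPKM in siNC, against 2.28, 1.43 and 1.91 FPKM in siINHBA. The lowest siINHBA library lay above the highest siNC library, at a log2 fold change of 3.03 (SE 0.29, adjusted p = 5.1e-06). ADORA2B, the low-affinity adenosine receptor that also couples to Gs, was at 0.299, 0.0680 and 0.154 FPKM in siNC, and at 1.81, 1.35 and 1.23 FPKM after INHBA siRNA. The siNC levels came from 20, 5 and 11 counts, so its log2 fold change of 3.02 (SE 0.40, adjusted p = 4.2e-05) is imprecise, and without siNC 1 it was 3.62.

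ADORA1, the Gi-coupled adenosine receptor, went the other way. It was at 1.21, 1.44 and 1.45 FPKM in siNC, and at 0.300, 0.538 and 0.457 FPKM after INHBA siRNA, a log2 fold change of -1.64 (SE 0.24, adjusted p = 8.3e-05; -0.55 with TMM, adjusted p = 0.080). The ratio of ADORA2B to ADORA1 within a library, which no scaling of libraries alters, was 0.247, 0.0471 and 0.106 in siNC and 6.01, 2.50 and 2.70 in siINHBA. ADORA1 was thus the more abundant of the pair in each siNC library and ADORA2B in each siINHBA library. These receptors were set side by side after their values were seen, and the ratio was not tested.

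S1PR1, CNR1, SSTR3 and APLNR, which also couple to Gi, were lower, whereas C3AR1, another Gi-coupled receptor, was higher. S1PR1, which binds sphingosine 1-phosphate, was at 11.4, 10.9 and 11.6 FPKM in siNC, against 3.41, 2.74 and 3.05 FPKM in siINHBA. Its siINHBA libraries lay close together, and its log2 fold change was -1.88 (SE 0.13, adjusted p = 9.3e-07). CNR1, the cannabinoid receptor CB1, was at 13.4, 12.7 and 12.7 FPKM in siNC, and at 5.14, 4.13 and 3.95 FPKM after INHBA siRNA. It was the most abundant receptor of the 37 in both groups, and its log2 fold change was -1.55 (SE 0.13, adjusted p = 2.3e-06). Both genes passed as lower with TMM, S1PR1 at -0.79 and CNR1 at -0.46. SSTR3, a somatostatin receptor, had the largest fall of the 37 at -3.68 (SE 0.33), from 102, 168 and 144 counts to 6, 11 and 16, and did not exceed 1.02 FPKM in any library. The apelin receptor APLNR was at 0.489 to 0.581 FPKM in siNC and 0.165 to 0.171 FPKM in siINHBA, at -1.61 on the log2 scale (TMM adjusted p = 0.095).

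MC1R, the melanocortin receptor that couples to Gs, was at 1.73, 2.16 and 2.23 FPKM in siNC and at 0.603, 0.364 and 0.750 FPKM in siINHBA. It was lower in every siINHBA library, with a log2 fold change of -1.81 (SE 0.30, adjusted p = 1.7e-04; -0.72 with TMM, adjusted p = 0.066). The 3 receptors known to couple to Gs therefore differed in direction. The Gq-coupled receptors ADRA1B, for noradrenaline, and TBXA2R, for thromboxane A2, were at -1.24 (SE 0.15) and -1.49 (SE 0.40) on the log2 scale. ADRA1B stood at 7.74 to 8.58 FPKM in siNC and 3.04 to 3.80 FPKM in siINHBA. TBXA2R was low and uneven, at 35, 11 and 17 counts in siINHBA, and without siINHBA 1 its log2 fold change was -2.17. With TMM neither gene passed (adjusted p = 0.43 and 0.44).

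Complement C3, listed as LOC101108131, and its receptor C3AR1 were both higher. C3 is cleaved to C3a, the ligand of C3AR1. Its level was 1.35, 0.844 and 0.774 FPKM in siNC, against 5.88, 7.75 and 6.05 FPKM in siINHBA, the highest siINHBA level among the 7 higher genes. The log2 fold change of C3 was 2.73 (SE 0.22, adjusted p = 2.3e-06). C3AR1 rose by 1.77 on the log2 scale (SE 0.32, adjusted p = 3.0e-04) but stayed low, at 0.0668, 0.0963 and 0.0962 FPKM in siNC and at 0.382, 0.259 and 0.283 FPKM in siINHBA. LHB, the beta subunit of luteinising hormone and a product of the pituitary, was listed too. It was at 2.70, 3.83 and 5.61 FPKM in siNC, against 0.985, 1.26 and 1.48 FPKM in siINHBA, from 53 to 114 and 19 to 34 counts. The siNC libraries of LHB were spread the widest among the named genes over 1 FPKM in siNC, and its log2 fold change was -1.66 (SE 0.32, adjusted p = 5.4e-04; -0.57 with TMM, adjusted p = 0.17).

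**Figure D3:**
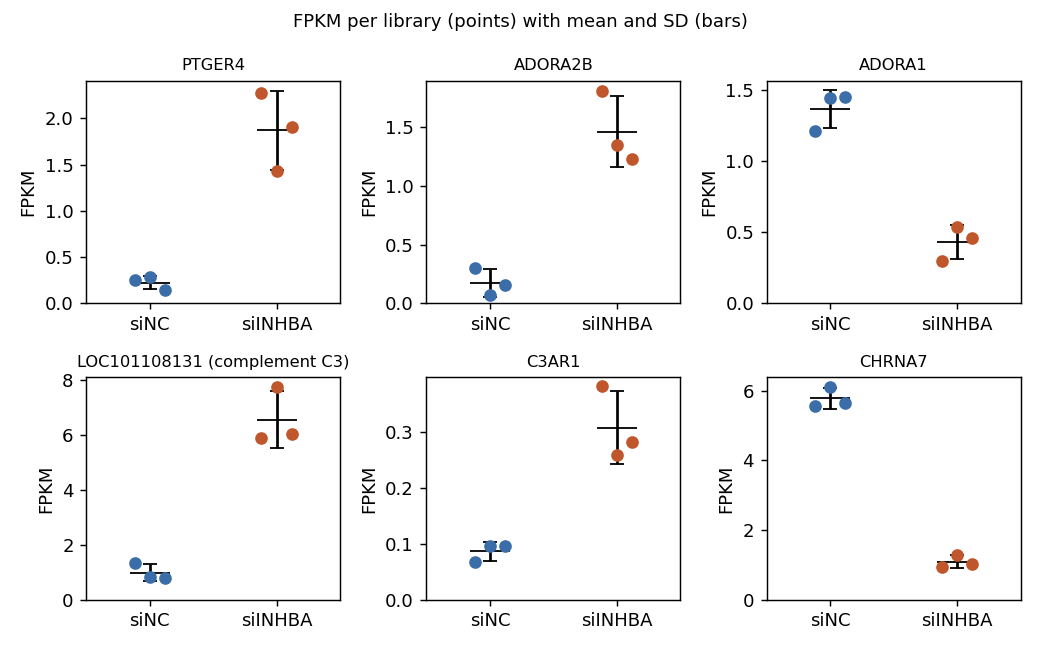
FPKM per library (points) with mean and SD (bars, n = 3) for PTGER4, ADORA2B, ADORA1, complement C3, C3AR1 and CHRNA7, each axis from 0. PTGER4, ADORA2B, C3 and C3AR1 are higher and ADORA1 and CHRNA7 lower in all 3 siINHBA libraries.

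Channels opened by acetylcholine or ATP were all lower. CHRNA7 encodes a nicotinic subunit that forms calcium-permeable channels on its own. It was at 5.56, 6.13 and 5.67 FPKM in siNC and at 0.939, 1.29 and 1.04 FPKM in siINHBA, 18.8% of the control level. Its log2 fold change was -2.40 (SE 0.17, adjusted p = 1.1e-06; -1.31 with TMM). CHRNA2, another nicotinic alpha subunit, was at 1.56, 1.37 and 1.55 FPKM in siNC and at 0.109, 0.296 and 0.264 FPKM in siINHBA, a log2 fold change of -2.70 (SE 0.31). CHRNA3, one more alpha subunit, was under 1 FPKM throughout, with 68, 63 and 73 counts in siNC and 5, 8 and 22 in siINHBA. Its log2 fold change was -2.59 (SE 0.39), and -3.32 without siINHBA 3. All nicotinic subunits of the 37 passed as lower under TMM as well, whereas P2RX5, an ATP-gated channel, did not (-1.47, SE 0.20; TMM adjusted p = 0.14).

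Few genes that make, destroy or export the second messengers were among the 37. ADCY3, an adenylyl cyclase, was at 4.39, 4.30 and 3.95 FPKM in siNC and at 1.52, 2.00 and 2.38 FPKM in siINHBA, a log2 fold change of -1.10 (SE 0.17, adjusted p = 1.3e-04). With TMM it was at 0.00 (adjusted p = 0.99), so ADCY3 moved as the median of the table did. PDE1A, a phosphodiesterase that calcium and calmodulin activate, fell from 72, 78 and 67 counts to 10, 6 and 24. This is a level under 0.5 FPKM in every library, and its log2 fold change of -2.49 (SE 0.38) was -3.11 without siINHBA 3. LOC101108321, annotated as similar to multidrug resistance-associated protein 4, which in humans exports cyclic nucleotides, had a log2 fold change of -1.40 (SE 0.26; TMM adjusted p = 0.35) at 0.298 FPKM in siNC.

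Ion channels that respond to cyclic nucleotides or calcium were lower as well. HCN2, a cation channel opened by hyperpolarisation and by cAMP binding, was at 13.3, 15.1 and 13.7 FPKM in siNC. In siINHBA it was at 3.21, 4.78 and 4.15 FPKM, a log2 fold change of -1.79 (SE 0.16, adjusted p = 3.2e-06; -0.70 with TMM, adjusted p = 0.0020). Its relative HCN4 was at 1.40 to 2.91% of the HCN2 level in siNC and 1.70 to 2.97% in siINHBA, ranges that overlap; its own log2 fold change was -1.47 (SE 0.39; TMM adjusted p = 0.47). ORAI3, a pore subunit of store-operated calcium entry, was at 8.30, 8.85 and 9.17 FPKM in siNC and at 3.17, 3.06 and 4.61 FPKM in siINHBA. It was lowest in siINHBA 2 and had a log2 fold change of -1.28 (SE 0.18, adjusted p = 5.5e-05; TMM adjusted p = 0.46). KCNMA1, the pore of the large-conductance potassium channel that calcium opens, had a log2 fold change of -1.40 (SE 0.25; TMM adjusted p = 0.29). In siINHBA 3 the number of counts behind 1 FPKM of KCNMA1 was 1.51 times its value in siNC 1, after correction for depth, and from the mean FPKM its log2 fold change was -1.58.

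Genes for pumps of the plasma membrane were lower. ATP1B2, a beta subunit of the sodium-potassium pump, was at 1.57 to 2.33 FPKM in siNC and 0.673 to 0.897 FPKM in siINHBA, with a log2 fold change of -1.30 (SE 0.22; TMM adjusted p = 0.46). ATP2B4, which pumps calcium out of the cell, was at 23.9, 26.6 and 23.2 FPKM in siNC, against 5.95, 12.1 and 9.38 FPKM in siINHBA. The level in siINHBA 1 was the lowest of the 6 libraries, and the log2 fold change was -1.42 (SE 0.22, adjusted p = 9.5e-05; TMM adjusted p = 0.21). A separate gene model, LOC114117316, is annotated in the authors' deposited table with the same pump. It was at 4.27, 4.42 and 3.70 FPKM in siNC, against 0.747, 2.08 and 2.01 FPKM in siINHBA, again lowest in siINHBA 1, with a log2 fold change of -1.35 (SE 0.31, adjusted p = 0.0017). In RefSeq (ARS-UI_Ramb_v3.0) a single gene lies between them. Also, ADORA1, ADCY3, CAMK1, CAMK1D, CHRNA7, GLI1, KCNMA1 and ATP2B4 each overlap another gene there, none of them listed, and strand use in counting is not stated. How the counting divided reads between these models is not given in the sources used here, so the separate values of ATP2B4 and LOC114117316 are uncertain. Leaving out LOC114117316, together with WDR78, gave 29 lower and 6 higher genes of 35.

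Kinases that respond to calcium included the genes that differed least. CAMK1, a calmodulin-dependent kinase, was at 29.4, 29.3 and 32.1 FPKM in siNC and at 14.9, 13.6 and 15.0 FPKM in siINHBA. Its log2 fold change of -1.06 (SE 0.11, adjusted p = 9.2e-06) was the smallest in size of the 37, and with TMM it was 0.03 (adjusted p = 0.87). The related CAMK1D was at 7.46 to 7.79 FPKM in siNC and 2.69 to 3.12 FPKM in siINHBA, a log2 fold change of -1.41 (SE 0.11; -0.33 with TMM, adjusted p = 0.027). The level of CAMK1D was 23.3 to 26.6% of that of CAMK1 in siNC and 18.1 to 23.0% in siINHBA. These ranges do not overlap but nearly meet, and the ratio was not tested. PTK2B, a tyrosine kinase activated by calcium, had a log2 fold change of -1.07 (SE 0.21) and was at 0.02 with TMM (adjusted p = 0.95). In the authors' deposited table, the log2 fold changes of CAMK1 and PTK2B were -1.10 and -1.06, just inside the 1.00 that is the smallest in that table; genes outside it were not analysed here.

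The remaining genes act further downstream or entered through their annotation. TNNI3, the inhibitory subunit of cardiac troponin and a protein kinase A substrate in the heart, was the most abundant of the 37. It was at 74.8, 75.6 and 75.9 FPKM in siNC and at 33.6, 33.5 and 37.8 FPKM in siINHBA, 46.3% of the control level. Its log2 fold change was -1.11 (SE 0.11, adjusted p = 4.8e-06) and -0.02 with TMM (adjusted p = 0.91). GLI1, the Hedgehog pathway transcription factor that the cAMP pathway includes, fell from 73, 66 and 97 counts to 11, 11 and 10, a log2 fold change of -2.90 (SE 0.30). MEF2B, a MADS-box transcription factor, was at 0.492, 0.266 and 0.195 FPKM in siNC and rose by 1.42 (SE 0.35) to 0.789, 1.04 and 0.813 FPKM.

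Among the higher genes, LOC101121655 and WDR78 are uncertain members. LOC101121655, named as insulin receptor substrate 1-like and placed by KEGG as insulin receptor substrate 3, had 9, 8 and 0 counts in siNC and 73, 91 and 84 in siINHBA. A count of 0 allows up to 3 counts, or 0.0353 FPKM in that library. The log2 fold change of 3.80 (SE 0.53) is therefore imprecise, and without siNC 3 it was 3.21. WDR78 was assigned to the neuroactive pathway because the KEGG column of the authors' deposited table names its product as insulin-like 5, whereas the same row names a WD repeat protein. It had 12, 8 and 18 counts in siNC and 52, 41 and 46 in siINHBA, a log2 fold change of 1.83 (SE 0.34).

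The siINHBA libraries were less alike than the siNC libraries. The median coefficient of variation of FPKM over the 37 genes was 9.23% in siNC and 21.2% in siINHBA, against 8.81% and 17.4% for the table. Of the 30 lower genes 14 (46.7%) were lowest in siINHBA 1, 11 in siINHBA 2 and 5 in siINHBA 3, where 37.1% of the lower genes of the table were lowest in siINHBA 1. Of the 21 genes of the table with the cAMP pathway, 13 were among the 37, and the rest were left out for another pathway. All 13 were lower, where 65.7% of the table was. Of the 18 genes of the 4 pathways left out in this way, 13 were lower and 5 higher. The 13 cAMP genes among the 37 were lowest in siINHBA 1 in 8 cases. A median of 24.2% of the siNC mean was left there, 34.1% in siINHBA 2 and 38.2% in siINHBA 3. ATP2B4 and LOC114117316 may share reads, so these are not 13 separate observations. Of the lower genes of the other pathways, 6 of 9 cGMP-PKG, 6 of 12 calcium and 6 of 13 neuroactive genes were lowest in siINHBA 1. Some genes count in several of these pathways. No label sets siINHBA 1 apart, and INHBA itself was highest in siINHBA 1 among the siINHBA libraries. Without siINHBA 1 all 37 genes kept their direction and passed.

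**Figure D4:**
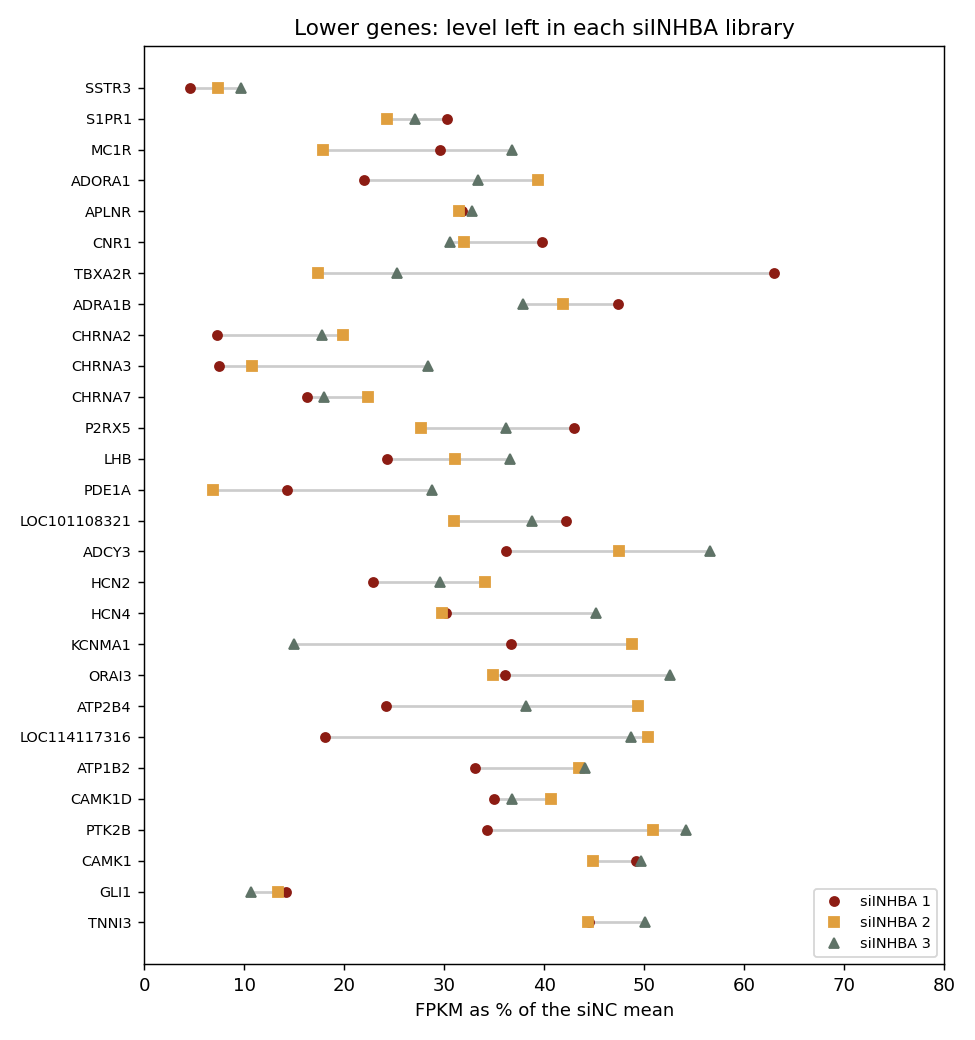
FPKM left in each siINHBA library, as a percentage of the siNC mean, for 28 of the 30 lower genes, in the order of roles used above. TBXA2R, KCNMA1 and LOC114117316 have the widest spreads, ATP2B4 and LOC114117316 are both lowest in siINHBA 1, and the highest value is 63.0%, for TBXA2R in siINHBA 1.

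A gene can carry several KEGG pathways at once, so pathways outside the rule are not separate from those in it. Of the 37 genes 8 (21.6%) carried the KEGG pathway for aldosterone synthesis and secretion, against 15 genes (0.926%) of the table. All 8 were lower, where 65.7% of the table was. ADCY3, ATP1B2, ATP2B4, LOC114117316, CAMK1 and CAMK1D were among them. The pathway for adrenergic signalling in cardiomyocytes, with 19 genes (1.17%) in the table, held 8 of the 37 as well, ADRA1B and TNNI3 among them. The authors' own keyword sections for cAMP (16 genes), cGMP (4) and calcium (107) held 12 of the 37 in all, so 25 were in none of them. The calcium section held 8 of the 37, which is 7.48% of that section and 21.6% of the 37. The cAMP section held 4, which is 25% of it, and all 4 genes of the cGMP section were among the 37; each of these is 10.8% of the 37.

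Textbook lists of the same pathways gave the wider setting. Of 289 genes in 12 lists, 33 were in the table, 16 of them among the 37, with 24 lower and 9 higher (edgeR, against 65.7% and 34.3% of the table) and a median log2 fold change of -1.26. With TMM 9 were called lower and 9 higher. In the list of receptors that couple to Gs, the hormone receptors FSHR and LHCGR among them, 2 of 26 genes were listed, PTGER4 and ADORA2B, both higher. MC1R, the Gs-coupled receptor described above, was not in this list and was lower, at -1.81. The list of Gq- and Gi-coupled receptors had 7 of 40 listed, 4 lower and 3 higher, and with TMM 1 was called lower and 3 higher. The higher ones, outside the 37, were the bradykinin receptors BDKRB1, at 2.54 on the log2 scale (SE 0.25), and BDKRB2, at 1.65 (SE 0.26), and the lysophosphatidic acid receptor LPAR1, at 1.88 (SE 0.27). CNR1, SSTR3 and APLNR, which were lower, and C3AR1, which was higher, were not in this list. The list of ligands had 1 of 26 listed, C3, and that of neurotransmitter-gated channels 1 of 20, CHRNA7. LHB, CHRNA2 and CHRNA3, described above and lower, were in neither of these lists.

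Of genes between receptor and response, 4 of 22 G proteins, cyclases and regulators were listed. GNA12 and RGS4, a GTPase-activating protein for Gi and Gq, were lower besides ADCY3, at -1.16 (SE 0.11) and -1.44 (SE 0.20). The Gi family member GNAZ was higher, at 1.12 (SE 0.15). With TMM GNA12 and RGS4 did not pass (adjusted p = 0.66 and 0.14), whereas GNAZ did (adjusted p = 3.6e-07). Of 20 phosphodiesterases PDE1A was lower, and PDE7A and PDE7B, which break down cAMP, were higher, at 1.20 (SE 0.19) and 2.42 (SE 0.39), the latter under 0.5 FPKM in both group means. The anchoring proteins of protein kinase A AKAP5 and AKAP12 were the 2 of 14 in their list, at -3.11 (SE 0.21) and -0.99 (SE 0.14). AKAP12 turned to 0.10 with TMM, and AKAP5, from 4.23 ± 0.16 to 0.490 ± 0.133 FPKM (SD, n = 3), passed (adjusted p = 4.8e-06). FOS, a cAMP-responsive gene and the 1 of 19 listed there, was at -1.26 (SE 0.16; TMM adjusted p = 0.41).

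In the textbook lists of calcium channels and pumps, of phospholipase C and IP3 receptors, and of calcium-dependent kinases, all listed genes were lower with the recovered depth, where 65.7% of the table was; ADORA2B, which KEGG also places in calcium signalling, was higher. Of 37 channels, pumps and exchangers 6 were listed, the voltage-gated channel genes CACNA1G, CACNA1H and CACNA1C besides ATP2B4, ORAI3 and P2RX5. The voltage-gated channel genes were at -2.16 (SE 0.25), -1.25 (SE 0.25) and -1.22 (SE 0.27) on the log2 scale, in that order. With TMM 1 of the 6 passed, CACNA1G. PLCE1, a phospholipase C, and ITPR3, an IP3 receptor of the calcium stores, were the 2 of 19 in their list, at -2.52 (SE 0.23) and -2.12 (SE 0.18), and both passed with TMM. The kinase list had 3 of 24 listed, CAMK1, CAMK1D and CAMKK2, the kinase that phosphorylates CAMK1. CAMKK2 fell from 56.3 ± 0.81 to 15.3 ± 1.02 FPKM (SD, n = 3), a log2 fold change of -1.88 (SE 0.10, adjusted p = 3.6e-07; -0.79 with TMM). In the cGMP list KCNMA1 was the 1 of 22 genes listed.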

How the data were processed

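Poly(A) RNA was captured with oligo(dT) beads and copied with random hexamers, per the labels' protocols, in 3 siINHBA and 3 siNC libraries. The authors deposited, per the file headers, raw counts with FPKM values for 1620 called genes in every library, plus a false discovery rate of theirs (p-value adjusted, at most 0.00895) and a log2 fold change. For the aligner, counter, test and build, the sources used here give nothing. 4 lines without a complete gene were left out.

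The quasi-likelihood test of edgeR 4.0.16 in R 4.3.3 was run on the counts (filterByExpr at a minimum count of 10, no block), with Benjamini-Hochberg adjustment over all 1620 genes and a threshold of 0.05. Depth came from the median ratio of count to FPKM, taken where all libraries had over 200 counts (702 genes), and lay between 0.952 and 1.17 of siNC 1. SE is the absolute log2 fold change over the square root of F. No library was a repeat of another (chi-square per gene at least 5.33 between replicates). The scripts were tested on simulated data. Alternatives used DESeq2 1.42.0 and limma 3.58.1.

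The members, lists and tests were chosen with earlier results of these data known. Values in all libraries were to be given for the 10 largest fold changes over 1 FPKM, the 8 highest levels and the 2 highest per pathway; other genes given per library were chosen after their values were seen. RefSeq (ARS-UI_Ramb_v3.0) matched 34 of the 37 genes, of which 8 overlap another gene, none of these listed. The planned promoter motifs were not searched. Some values are not reported here.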

Additional observations from a re-analysis of the deposited data

How the results depend on the processing

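Over 542 values of single genes under 15 settings, 502 kept direction and call, 36 no longer passed and 4 reversed. All changes came from settings that rescale the libraries. With TMM 19 of 37 values were kept, with the size factors of DESeq2 19 of 37, and with the sum of listed counts 33 of 37. The other settings kept every value, but every gene had been called on this same contrast, so the pooled count says little. The reversals were CAMK1 and PTK2B, at 0.028 and 0.018 with TMM over the listed genes and at 0.029 and 0.016 with the size factors of DESeq2. With TMM and with these size factors 12 of the 37 genes were called lower, the median log2 fold change was -0.33 and -0.34, and 9 genes of the textbook lists were lower in each; by construction, both set the bulk of the listed genes near 0. The median was -0.75 with the sum of listed counts as library size, where LOC114117316, HCN4, PTK2B and TBXA2R no longer passed, and -0.73 in limma on log2(FPKM + 1), whose pseudocount shrinks low genes. Requiring a mean of 1 FPKM in a group left 3 higher genes, because MEF2B, C3AR1, WDR78 and LOC101121655 were under 1 FPKM in both groups. Leaving no gene of the 4 pathways out gave 12 higher and 43 lower, and genes with exactly 1 of the pathways gave 18 lower. INHBA was lower and past the threshold in every setting.

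Leaving out each library in turn gave 30 lower and 7 higher genes each time, with a median log2 fold change of -1.48 to -1.36, and INHBA between -1.64 and -1.38, but every gene had been called from these same libraries. No label pairs the replicate numbers, and the deviations of same-numbered libraries had correlations of 0.075, 0.203 and -0.009. With a replicate block 30 genes were lower and 7 higher in edgeR. Low counts limit precision: single libraries moved the fold change of ADORA2B, PDE1A, TBXA2R, LOC101121655 and CHRNA3 by over 1.5 times.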
